A study of Mus musculus with 10 samples.

Results

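Replication-dependent histone genes encode the 4 core histones, H2A, H2B, H3 and H4, and the linker histone H1 that package newly copied DNA. Here they were every gene whose symbol in the GENCODE M21 mouse annotation begins with Hist1h, Hist2h, Hist3h or Hist4h and whose gene type is protein-coding. This gave 67 genes of the 54408 genes with transcripts in the deposited tables, namely 6 H1, 18 H2A, 18 H2B, 12 H3 and 13 H4 genes. Hist1h2aj, Hist1h2al and Hist3h2bb-ps carry such a symbol with another gene type and were not members. The Hist1 cluster on mouse chromosome 13 (21715763 to 23934851, GRCm38) held 54 of the members and the Hist2 cluster on chromosome 3 (96219865 to 96270132) held 10. Hist3 on chromosome 11 held 2 members, and Hist4 on chromosome 6 held 1.

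The RNA came from CD8 T cells with the TCRP1A receptor, which recognises the P1A tumour antigen, sorted as infiltrating cells from P511 mastocytoma tumours. All groups share that receptor, a 24-hour activation, a retroviral transduction and a transfer 24 hours later into Rag1-/- B10D2 mice with P511 tumours, and all were collected 7 days after transfer. The labels give the strain as C57BL/6, which differs from the B10D2 background of the hosts, and Rag1-deficient hosts keep innate immune cells but no T or B cells of their own. The NFAT5 group (libraries 1, 5 and 8) received a vector for NFAT5, a transcription factor of the Rel family known for its role under osmotic stress. The CA-RIT NFAT1 group (libraries 2, 4, 9 and 10) received a vector for CA-RIT NFAT1, a constitutively active NFAT1 known to be unable to cooperate with AP-1. The eGFP group (libraries 3, 6 and 7) received the empty vector with eGFP. Both factors are overexpressed from a vector, and the labels do not say how many mice stand behind the libraries. The p-values thus reflect library-to-library spread alone, which may be technical. In these bulk samples fewer cells in S phase and less histone RNA per cell cannot be told apart.

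Messages of this family are made in S phase and are known for ending in a short stem-loop instead of a poly(A) tail. The stem-loop-binding protein Slbp holds that stem-loop through processing, export and translation, and the message is degraded when DNA synthesis stops. Replacement histones such as H2afz and H3f3b are made throughout the cell cycle from ordinary polyadenylated messages. Activated CD8 T cells divide rapidly, and histone messages are among the transcripts that mark cells copying their DNA.

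The annotated transcripts show this stem-loop, and its wording is given here because it is the mark by which the label was checked. The pattern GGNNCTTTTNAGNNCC was found on the sense strand in 44 of the 67 members and in 0.0872% of all 139966 transcripts searched. It came in 6 wordings among the members, of which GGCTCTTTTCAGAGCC was the most frequent, in 26 genes. Of the 23 members with no match, 14 have an annotated transcript that stops at the stop codon, so the region where the stem-loop would lie is not in the sequence. In the windows below, read 5′ to 3′ from the annotated transcripts, capitals mark the 16 bases of the stem-loop and lower case the 12 bases before it.
Hist1h2ap: aaaaaaaaaaaaGGCTCTTTTCAGAGCC
Hist1h2ao: aaaaaaaaaaaaGGCTCTTTTCAGAGCC
Hist1h2ae: aaaaaaaacaaaGGCTCTTTTCAGAGCC
Hist1h3c: tatttaaaaaaaGGCTCTTTTAAGAGCC
Hist1h2ab: aaccaaaacaaaGGCTCTTTTCAGAGCC
Hist1h2bg: tcctaacccaaaGGCTCTTTTCAGAGCC
Hist1h1e: caacaacccaaaGGCTCTTTTCAGAGCC
Hist1h4d: ccaaaaaccaaaGGCCCTTTTCAGGGCC
The stem-loops of Hist1h2ap and Hist1h2ao follow directly on a run of 12 adenines, while those of Hist1h2bg, Hist1h1e and Hist1h4d follow on a run of 3.

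Depth ran from 18.8 to 36.5 M estimated reads on matched genes in 9 libraries, and eGFP 7 held only 51104 reads, 3 of them on a histone gene, Hist1h2ap. CA-RIT NFAT1 10 had 188 CPM (reads scaled to an equal total in each library) on 9 CD8 T cell markers, against 26754 to 41342 CPM in the 8 libraries other than it and eGFP 7. Its 10 mast cell and P511 markers summed to 5146 CPM and its 10 macrophage markers to 4352 CPM, against at most 265 and 222 CPM in those 8. Results therefore use the 8 libraries unless all 10 are named. Of those 8, eGFP 3 stood apart with 1387 CPM on 6 antigen-presenting markers, against 180 to 325 CPM in the other 7, and with 17 histone genes listed at 0, against 4 to 8 in the other 7. What part this has in the comparisons with eGFP was not tested. As a check of the labels, Nfat5 stood at 48.0 to 87.0 CPM in the NFAT5 libraries, at 3.01 to 10.7 CPM in CA-RIT NFAT1 2, 4 and 9 and at 1.12 and 6.88 CPM in eGFP 3 and 6, with no overlap between NFAT5 and the other groups. Nfatc2, which encodes NFAT1 and is also expressed by T cells themselves, did not separate the groups. It had 36.6 to 70.0 CPM in the NFAT5 libraries, 88.8, 63.5 and 30.0 CPM in CA-RIT NFAT1 2, 4 and 9, and 4.00 and 47.3 CPM in eGFP 3 and 6, so CA-RIT NFAT1 9 lay under eGFP 6. These reads do not tell the vector's NFAT1 from the cells' own, so Nfatc2 is no firm check of the CA-RIT NFAT1 label.

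Histone reads were dominated by H2A, and within H2A by Hist1h2ap. How reads were primed is not given in the labels, so these shares need not be those of the messages in the cells. H2A took 94.3 to 95.8% of the histone TPM (deposited, a level per transcript length) in the 8 libraries. H4 took 0.796 to 1.68%, H3 0.677 to 1.46%, H2B 1.07 to 1.45% and H1 0.919 to 1.43%. Hist1h2ap alone, at chromosome 13, 21833026 to 21833507 on the minus strand, held 76.8% of the histone reads in CA-RIT NFAT1 9 (95% Wilson interval 76.5 to 77.1%) and up to 83.2% in eGFP 3 (82.9 to 83.5%). These intervals cover counting error only. In CPM, Hist1h2ap stood at 1473, 2616 and 2840 in NFAT5 1, 5 and 8, at 1198, 1901 and 1942 in CA-RIT NFAT1 2, 4 and 9, and at 1651 and 1460 in eGFP 3 and 6. NFAT5 5 and 8 were the highest and CA-RIT NFAT1 2 the lowest, and the eGFP libraries lay within the CA-RIT NFAT1 range, with eGFP 6 just under NFAT5 1.

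Ordered by TPM averaged over the 8 libraries, Hist1h2ap led with 8394 TPM (5724 to 12066). It was followed by Hist1h2ao with 354 TPM (148 to 580) and Hist1h2ae with 190 TPM (79.7 to 336), whose ranges overlap. Both encode the same H2A protein as Hist1h2ap. Hist1h2ab had 71.8 TPM (14.5 to 129), the H4 gene Hist1h4d 65.7 (16.5 to 108), the linker histone gene Hist1h1b 58.0 (33.6 to 94.5) and the H3 gene Hist1h3i 48.8 (8.77 to 82.9), and these 4 overlap too. Among the H2B genes, Hist1h2bc led its class with 16.4 TPM (11.9 to 22.2) and Hist3h2ba had 15.9 TPM (11.5 to 18.6), within the same range.

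By reads, 16 members averaged 5 CPM or more, 31 averaged 1 to 5 CPM, 17 were under 1 CPM, and Hist1h1t, Hist1h2aa and Hist2h2ab were listed at 0 in the 8 libraries. Hist1h1t and Hist1h2aa are known as testis genes. By counting error alone, a count of 0 allows up to 0.0821 to 0.160 CPM in a library of this depth. No member with 2 or more annotated transcripts reached 5 CPM, and 5 members had more than 1 transcript.

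**Figure D1:**
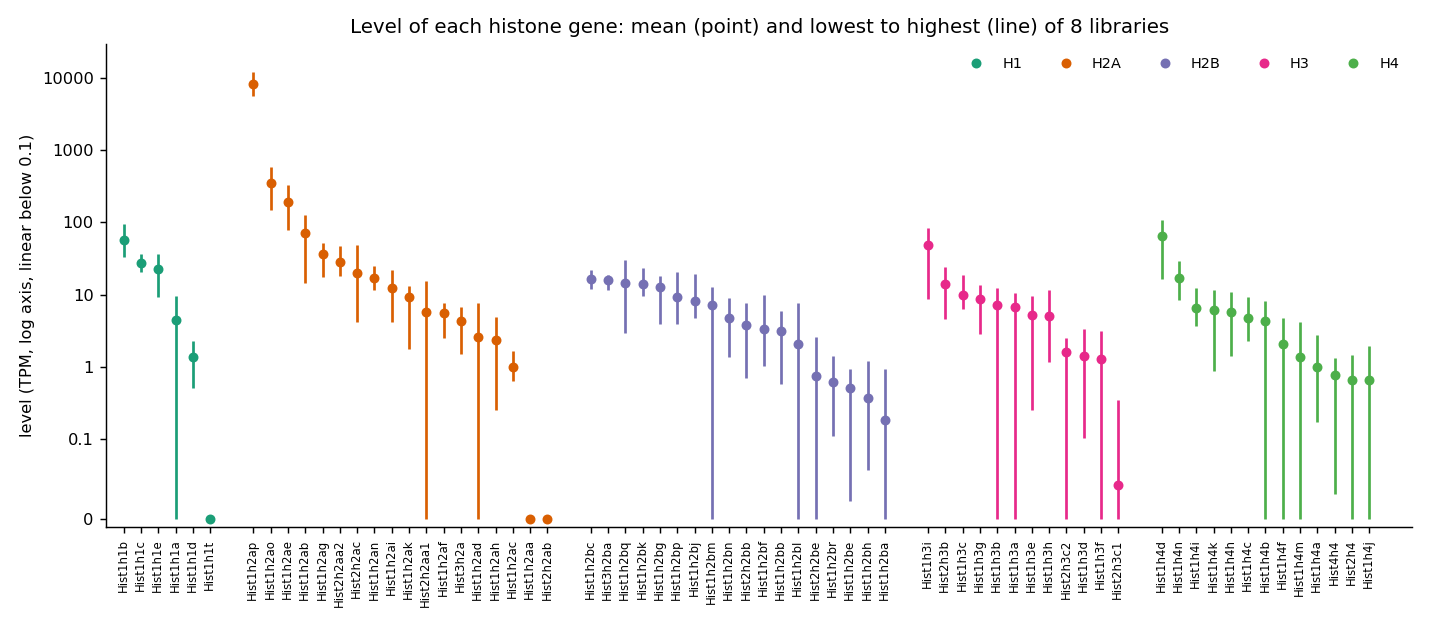
Level of each of the 67 histone genes in TPM on a log axis, by class; points are means and lines run from the lowest to the highest of the 8 libraries. Hist1h2ap, at 8394 TPM, stands above Hist1h2ao at 354 and Hist1h2ae at 190 TPM, and no H2B gene exceeds 29.7 TPM in any of these libraries.

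The 3 members with the highest TPM also had the longest adenine runs before the stem-loop. A run of 7 or more ended within 5 bases before the stem-loop in 4 members: 12 bases in Hist1h2ap and Hist1h2ao, 8 in Hist1h2ae and 7 in Hist1h3c. Their mean levels were 9.94 to 8394 TPM with a median of 272 TPM. The other 40 members with a stem-loop had 0 to 71.8 TPM with a median of 4.96, and the 23 without a match had 0 to 58.0 TPM with a median of 4.99. A run of 8 or more adenines anywhere in the transcript was in 7 members, at 0.502 to 8394 TPM with a median of 16.4. The other 60 had a median of 5.30 TPM. Hist1h2ac, with the longest run of all, 15 bases past its stem-loop, had only 0.985 TPM. Levels are described here with no test, since the genes share libraries and much of their sequence. The labels name a Clontech kit for the libraries but not how its reads were primed, and what part these runs have in the levels was not tested.

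**Figure D2:**
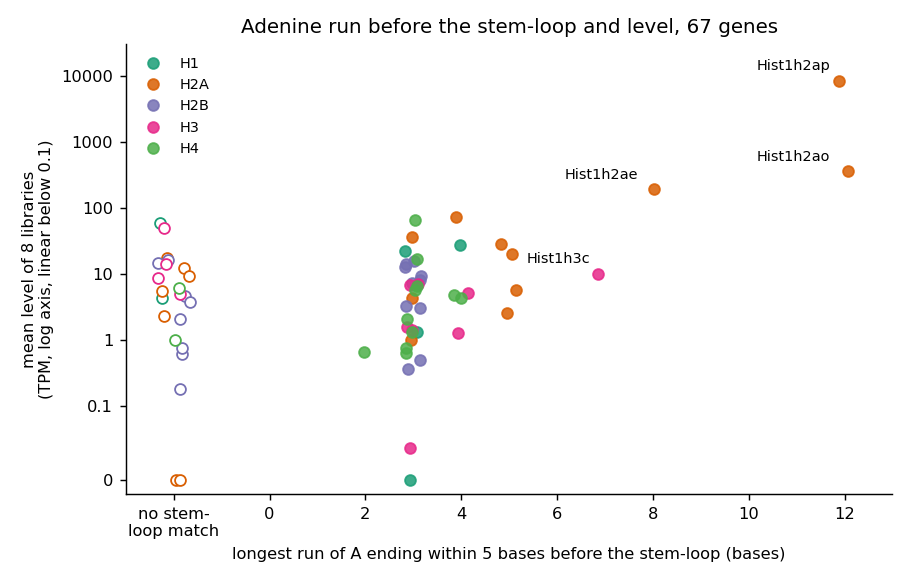
Mean level over the 8 libraries in TPM (log axis) against the longest run of adenines that ends within 5 bases before the stem-loop, for 67 genes coloured by class; open points are genes with no stem-loop match and points are spread sideways a little. The genes with runs of 12, 12, 8 and 7 bases are named, and Hist1h3c, at 7 bases, had only 9.94 TPM.

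These genes are close copies, which limits how surely reads can be given to a member. For Hist1h2ap, 6.64% of its words of 31 bases occur in no other gene's transcripts, and 93.4% of them also occur in Hist1h2ao. Only 6.22% of the words of Hist1h2ao were its own. Over the classes, the median share of such unique words was 96.2% for H1, 22.9% for H2A, 37.1% for H2B, 37% for H3 and 52.1% for H4. There were 6 members with no unique word and 41 with under 50%. All 13 H4 genes encode 1 identical protein from 12 different coding sequences, and 9 H2A genes, Hist1h2ap, Hist1h2ao and Hist1h2ae among them, encode 1 protein. The split of reads within H2A, H2B, H3 and H4 is therefore uncertain, and class sums are surer than single members.

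Summed over all 67 genes, histone reads were 1884, 3369 and 3555 CPM in NFAT5 1, 5 and 8, 1493, 2318 and 2529 CPM in CA-RIT NFAT1 2, 4 and 9, and 1984 and 1813 CPM in eGFP 3 and 6. NFAT5 5 and 8 lay above every other library, NFAT5 1 lay between both eGFP libraries, and CA-RIT NFAT1 2 lay below all of the 8. The means were 2936 ± 916 CPM for NFAT5, 2113 ± 547 CPM for CA-RIT NFAT1 (SD, n = 3 each) and 1899 ± 121 CPM for eGFP (n = 2). The log2 ratio of means was 0.63 for NFAT5 to eGFP, with overlapping groups. It was 1.19 over all 10 libraries, where eGFP 7 enters with only 3 histone reads and lowers the eGFP mean. For CA-RIT NFAT1 to eGFP it was 0.15, but -0.03 with upper-quartile scaling and 0.01 without CA-RIT NFAT1 9, so no direction can be given. For CA-RIT NFAT1 to NFAT5 it was -0.47, again with overlapping groups, -0.71 without NFAT5 1 and -0.28 without CA-RIT NFAT1 2. No p-value is given for sums over members.

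Without Hist1h2ap, the other 66 members summed to 411, 754 and 715 CPM in NFAT5 1, 5 and 8, 296, 416 and 586 CPM in CA-RIT NFAT1 2, 4 and 9, and 333 and 353 CPM in eGFP 3 and 6. All 3 NFAT5 libraries then lay above both eGFP libraries, whereas the CA-RIT NFAT1 libraries lay on either side of them. The log2 ratio was 0.87 for NFAT5 to eGFP and 0.33 for CA-RIT NFAT1 to eGFP, and 1.45 and 0.73 over all 10 libraries. There eGFP 7 enters with 0 reads on these 66 members, and the eGFP mean falls from 343 to 229 CPM. The higher ratios over all 10 libraries are thus no further support. Leaving out Hist1h2ap was chosen after its share was seen.

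By class, H4 had the highest log2 ratio to eGFP in both comparisons, and over the 8 libraries H3 came next and H2B last. H4 summed to 87.2, 139 and 148 CPM in NFAT5 1, 5 and 8, 35.7, 76.0 and 130 CPM in CA-RIT NFAT1 2, 4 and 9, and 39.0 and 46.1 CPM in eGFP 3 and 6. Every NFAT5 library lay above both eGFP libraries, with a log2 ratio of means of 1.55, and CA-RIT NFAT1 spanned from below to above them, with a ratio of 0.92. H3, the other partner of the H3-H4 tetramer at the centre of the nucleosome, summed to 30.1, 44.7 and 36.5 CPM in NFAT5, 22.9, 35.8 and 38.0 CPM in CA-RIT NFAT1, and 14.4 and 26.2 CPM in eGFP. NFAT5 again lay above eGFP, with a log2 ratio of 0.87, and 0.50 against eGFP 6 alone. H2B averaged 46.5 ± 9.96 CPM in NFAT5, 41.9 ± 6.44 CPM in CA-RIT NFAT1 and 42.3 ± 4.86 CPM in eGFP, with log2 ratios to eGFP of 0.14 and -0.01. The place of H3 rested on eGFP 3. Against eGFP 6 alone, H1 came after H4, with log2 ratios of 1.00 for NFAT5 and 0.54 for CA-RIT NFAT1 (0.52 and 0.05 over the 8 libraries), and H3 had 0.50 and 0.30. Over all 10 libraries, where eGFP 7 enters, the ratios of NFAT5 to eGFP were 2.14 for H4, 1.46 for H3, 1.17 for H2A, 1.10 for H1 and 0.72 for H2B. Those of CA-RIT NFAT1 to eGFP were 1.24 for H4, 1.07 for H3, 0.48 for H2A, 0.48 for H1 and 0.49 for H2B. But eGFP 7 had 0 reads on H1, H2B, H3 and H4 and only 3 on H2A. It lowered each eGFP mean through its few reads, so the higher ratios over all 10 libraries are no further support.

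H2A averaged 2592 ± 809 CPM in NFAT5, 1860 ± 467 CPM in CA-RIT NFAT1 and 1698 ± 101 CPM in eGFP, a log2 ratio of 0.61 for NFAT5 to eGFP, with overlapping groups. Linker histone H1 summed to 67.7, 170 and 171 CPM in NFAT5 1, 5 and 8, 75.4, 90.2 and 131 CPM in CA-RIT NFAT1 2, 4 and 9, and 122 and 68.1 CPM in eGFP 3 and 6. NFAT5 held both the lowest and the highest H1 library of the 8. The same libraries, NFAT5 5 and 8, were the top of H1, H2A, H2B and H4, and NFAT5 5 the top of H3. Of the 64 members with reads in the 8 libraries, 20 had their highest CPM in NFAT5 5, 16 in NFAT5 8 and 11 in CA-RIT NFAT1 9, against 2 in NFAT5 1, 3 in CA-RIT NFAT1 2 and 4 each in CA-RIT NFAT1 4, eGFP 3 and eGFP 6.

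**Figure D3:**
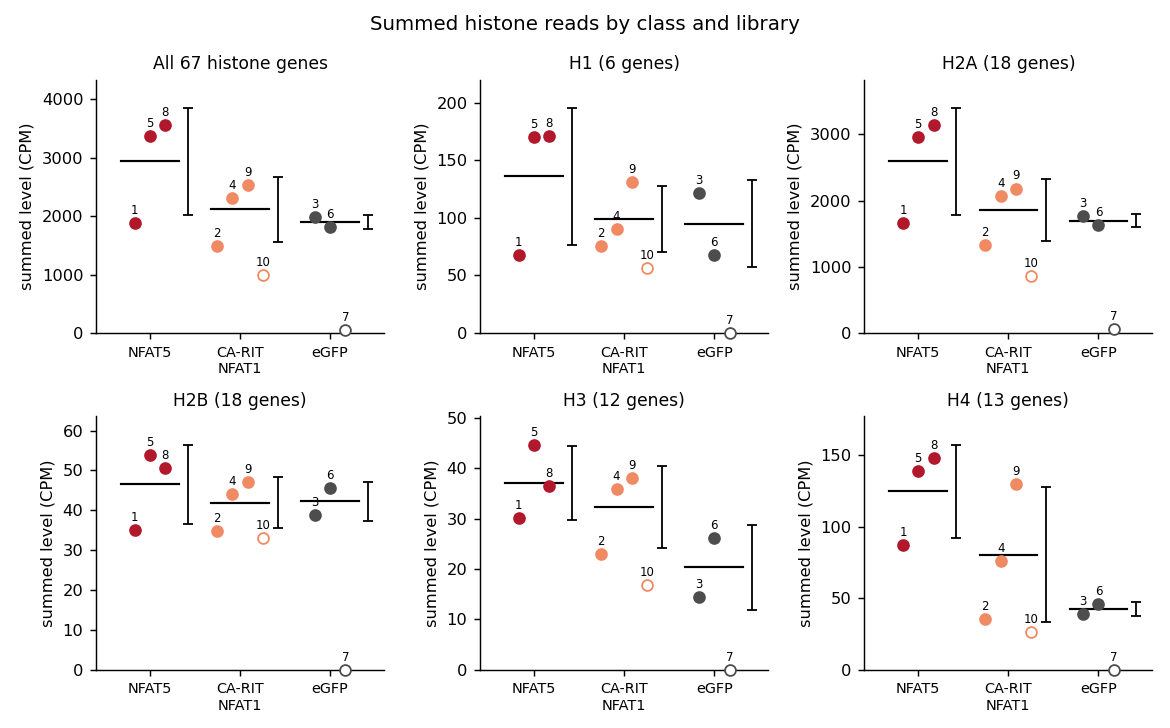
Summed CPM of all histone genes and of each class by library, with the library number above each point, NFAT5, CA-RIT NFAT1 and eGFP from left to right; black lines are means and bars SD of the filled points (n = 3, 3 and 2), and open points are CA-RIT NFAT1 10 and eGFP 7, which were left out. The NFAT5 points lie above the eGFP points for H3 and H4 and overlap them for H1, H2A and H2B.

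Gene by gene, no member passed an adjusted p of 0.05 with edgeR's quasi-likelihood test in any of the 3 comparisons over the 8 libraries. The test was fitted over 14483 genes, of which 62 were members; Hist1h1t, Hist1h2aa, Hist1h2ba, Hist2h2ab and Hist2h3c1 fell under its low-count filter. Among all genes the test called 0% in each comparison, so the members' count of 0 is that of the background. DESeq2 called no member either, beside 0.743% of all genes for NFAT5 against eGFP, 0.423% for CA-RIT NFAT1 against eGFP and 0.00694% for CA-RIT NFAT1 against NFAT5, and limma voom called none. At an unadjusted p under 0.05, edgeR gave 4 members for NFAT5 against eGFP (7.26% of all genes), 1 for CA-RIT NFAT1 against eGFP (6.44%) and 1 for CA-RIT NFAT1 against NFAT5 (1.13%). In the same order DESeq2 gave 8, 3 and 1 members, beside 10.0%, 9.24% and 1.17% of all genes. Limma voom gave 1, 0 and 8 members, beside 6.29%, 6.60% and 6.82% of all genes. These shares count both directions. The 4 edgeR members for NFAT5 against eGFP were all higher, beside 472 of all genes higher and 580 lower. So were the 8 of DESeq2, beside 702 higher and 746 lower. Of the 8 by limma voom for CA-RIT NFAT1 against NFAT5, 7 were lower and 1 higher, beside 348 and 640 of all genes.

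The counts of calls rested on eGFP 6. Without it, when eGFP 3 was the only control and was assumed to vary like the other groups, edgeR called 10 of 62 members higher in NFAT5, beside 20.6% of all genes called. It called 8 members higher in CA-RIT NFAT1, beside 21.3% of all genes. In both comparisons 6 of these, Hist1h1a, Hist1h2bm, Hist1h3a, Hist1h3b, Hist1h3f and Hist2h4, were listed at 0 in eGFP 3. Without eGFP 3, with eGFP 6 as the only control, no member was called.

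For NFAT5 against eGFP, 49 of the 62 tested members had a positive log2 fold change, and their median was 0.69, beside a median of 0.08 and 53.8% positive over all genes tested. With the trend with transcript length removed, the median was 0.57 beside -0.09 for all genes. The libraries of NFAT5 lay wholly above those of eGFP for 20 members (32.3%), beside 14.3% of all genes, and wholly below for 3 members, beside 8.15% of all genes. The smallest adjusted p of a member in this comparison was 0.654.

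Among the H4 genes, Hist1h4d, at chromosome 13, 23581598 to 23582735 on the plus strand, carried most of the class. It had 68.7, 118 and 117 CPM in NFAT5 1, 5 and 8, 24.9, 61.8 and 108 CPM in CA-RIT NFAT1 2, 4 and 9, and 20.3 and 36.6 CPM in eGFP 3 and 6. All NFAT5 libraries lay above both eGFP libraries, and the CA-RIT NFAT1 libraries spread between the extremes of the other groups. Its log2 fold change was 1.75 ± 0.61 (SE) for NFAT5 against eGFP, with an adjusted p of 0.654 by edgeR. It was 1.10 ± 0.59 for CA-RIT NFAT1 against eGFP (edgeR, adjusted p = 0.68). Its transcript shares little with other genes, as 85.3% of its words are its own, and its annotated end lies 770 bases past the stem-loop.

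Hist1h2ao, the near copy of Hist1h2ap, at chromosome 13, 21810465 to 21810944, had 76.7, 134 and 126 CPM in NFAT5, 53.5, 64.9 and 66.3 CPM in CA-RIT NFAT1, and 38.7 and 70.1 CPM in eGFP. NFAT5 lay above both other groups, with no overlap, and the CA-RIT NFAT1 libraries lay between the eGFP libraries. The log2 fold change was 0.96 ± 0.35 for NFAT5 against eGFP (edgeR, adjusted p = 0.654) and -0.89 ± 0.30 for CA-RIT NFAT1 against NFAT5 (edgeR, adjusted p = 1). Hist1h2ap itself had 0.47 ± 0.36 for NFAT5 against eGFP and -0.48 ± 0.32 for CA-RIT NFAT1 against NFAT5, and its groups overlapped in both.

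Hist1h2ae had 65.7, 130 and 90.2 CPM in NFAT5, 30.6, 47.5 and 99.0 CPM in CA-RIT NFAT1, and 32.0 and 56.6 CPM in eGFP, and NFAT5 lay above eGFP. Hist1h2ad, another H2A gene with the same protein, was low throughout: 0.262, 2.24 and 1.04 CPM in NFAT5, 0, 0.762 and 1.45 CPM in CA-RIT NFAT1, and 0 in both eGFP libraries. Against a floor of 3 counts over both eGFP libraries its mean was at least 24.1-fold higher in NFAT5 and at least 15.1-fold higher in CA-RIT NFAT1. CA-RIT NFAT1 2 was at 0 like both eGFP libraries, so those 2 groups overlapped and the bound holds for the mean alone. The adjusted p by edgeR was 0.654 for NFAT5 and 0.68 for CA-RIT NFAT1. With 0 reads in eGFP, the gene passed the low-count filter only through the groups where it is higher. These bounds cover counting error alone. They do not cover the split of reads among close copies, as only 31.7% of the words of Hist1h2ad are its own. The medians of all tested members were the same, 0.69 and 0.49, with this gene at its bound.

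Among the H3 genes, Hist1h3i led with 13.1, 19.2 and 13.1 CPM in NFAT5, 7.39, 15.0 and 7.92 CPM in CA-RIT NFAT1, and 2.30 and 7.86 CPM in eGFP. The NFAT5 libraries were above both eGFP libraries, with a log2 fold change of 1.51 ± 0.66 (edgeR, adjusted p = 0.654). Hist2h3b had a log2 fold change of 0.75 with non-overlapping groups, and Hist1h3c 0.07 with overlapping ones. Hist1h3e stood at 2.36, 2.92 and 1.33 CPM in NFAT5, 3.11, 3.79 and 5.53 CPM in CA-RIT NFAT1, and 0.168 and 4.10 CPM in eGFP, so its eGFP libraries lay at both ends of its NFAT5 values.

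In the H2B class, 3 genes were lower in NFAT5 than in both eGFP libraries. Hist1h2bc, the leading H2B gene, had 11.6, 17.4 and 12.2 CPM in NFAT5, 12.4, 10.5 and 10.6 CPM in CA-RIT NFAT1, and 18.2 and 18.6 CPM in eGFP, the highest of the 8. The log2 fold change was -0.52 ± 0.39 for NFAT5 and -0.84 ± 0.39 for CA-RIT NFAT1 against eGFP (edgeR, adjusted p = 0.694 and 0.68). Its annotated transcript has 2 exons and no stem-loop match, and it runs 742 bases past the coding sequence. Hist1h2bh had at most 0.428 CPM in NFAT5 and 0.442 CPM in CA-RIT NFAT1, against 0.884 and 1.69 CPM in eGFP. Hist1h2bb averaged 0.432 ± 0.179 CPM in NFAT5 and 1.42 ± 0.345 CPM in eGFP, a log2 fold change of -1.85 ± 1.18. Of the other leading H2B genes, Hist1h2bg had 0.73 and Hist3h2ba -0.04 for NFAT5 against eGFP.

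For each leading H1 gene the groups overlapped. Hist1h1e had 20.5, 61.0 and 67.1 CPM in NFAT5, 20.2, 35.6 and 46.7 CPM in CA-RIT NFAT1, and 51.9 and 15.7 CPM in eGFP. Hist1h1c had 23.1, 40.7 and 42.5 CPM in NFAT5, 34.3, 22.1 and 25.4 CPM in CA-RIT NFAT1, and 47.4 and 23.6 CPM in eGFP. In both genes eGFP 3 was far above eGFP 6, and NFAT5 5 and 8 far above NFAT5 1. Hist1h1b, whose eGFP libraries were alike at 18.6 and 20.3 CPM, had 17.5, 46.6 and 39.8 CPM in NFAT5 and 15.1, 22.8 and 40.2 CPM in CA-RIT NFAT1.

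**Figure D4:**
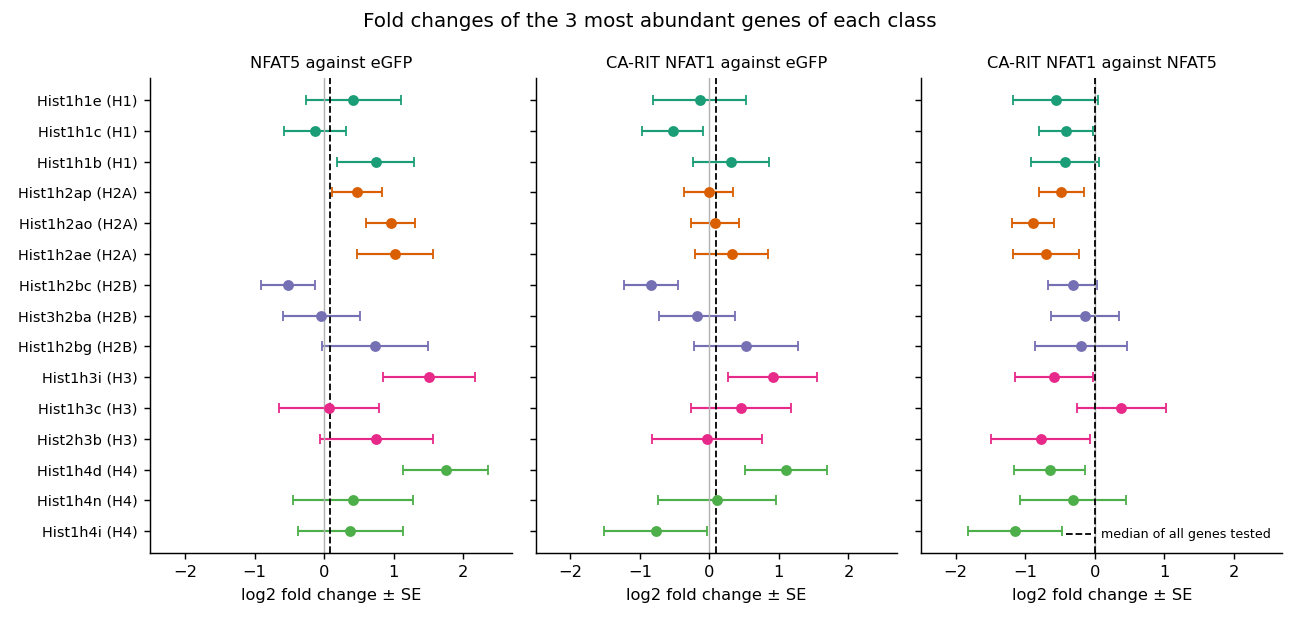
Log2 fold change with its SE for the 3 genes of highest mean CPM in each class, in the 3 comparisons; dashed lines are the medians of all genes tested, 0.08, 0.10 and 0.00. Hist1h4d at 1.75 and Hist1h3i at 1.51 lie farthest right for NFAT5 against eGFP, Hist1h2bc lies left of 0 against eGFP, and 14 of 15 points lie left of 0 for CA-RIT NFAT1 against NFAT5, of which Hist1h2bg, Hist1h4n and Hist3h2ba change sign when 1 library is left out.

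For CA-RIT NFAT1 against eGFP, 42 of the 62 tested members had a positive log2 fold change, with a median of 0.49 beside 0.10 and 54.6% positive over all genes. The median was 0.06 without CA-RIT NFAT1 9 and 0.18 with a stricter filter on low values. The libraries did not overlap for 8 members that were higher (12.9%, beside 14.2% of all genes) and for 3 that were lower (beside 6.68%), namely Hist1h2bc, Hist1h2bh and Hist1h4a. For Hist1h4a this held for the 8 libraries: its log2 fold change was -1.86 there and 0.59 over all 10, where CA-RIT NFAT1 10 enters with 3.26 CPM. The share of higher members was near that of the background. Hist1h2br had 0.926, 0.440 and 1.38 CPM in CA-RIT NFAT1 against 0.125 and 0.164 CPM in eGFP, a log2 fold change of 2.47 ± 1.31. Only 0.163% of the words of Hist1h2br are its own, so its share of reads is uncertain. Hist1h4b had 0.108, 1.60 and 1.82 CPM in CA-RIT NFAT1 against 0 and 0.205 CPM in eGFP, with overlap. Both comparisons with eGFP share the same 2 control libraries.

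CA-RIT NFAT1 and NFAT5 were compared with no eGFP library. Here 46 of the 62 tested members had a negative log2 fold change, with a median of -0.34 beside 0.00 over all genes. The median was -0.51 over all 10 libraries and -0.18 with the length trend removed, and it ran from -0.62 to -0.15 with each library left out. Hist1h2ao, Hist1h4j and Hist2h4 lay wholly below NFAT5 in CA-RIT NFAT1, 3 members beside 2.78% of all genes. Hist1h4j, a low H4 gene, had 0.0418, 0.224 and 0.0764 CPM in CA-RIT NFAT1 against 0.456, 1.06 and 1.28 CPM in NFAT5, a log2 fold change of -3.11 ± 1.52 (edgeR, adjusted p = 1). Hist1h3e and Hist2h3c2 lay wholly above, 2 members beside 4.06% of all genes. Both shares are near the background.

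Of the other genes with the smallest p-values in this comparison, Hist1h2bl had 0.210, 0.0720 and 0.169 CPM in CA-RIT NFAT1 and 0.203, 1.02 and 1.64 CPM in NFAT5. A single NFAT5 library made the groups overlap. Hist2h2be had 1.14, 6.08 and 2.38 CPM in CA-RIT NFAT1 and 1.49, 1.49 and 0 CPM in NFAT5, also with overlap. Its log2 fold change of 1.69 was positive with each library left out, and 0.81 without CA-RIT NFAT1 4. Hist1h2bj had a log2 fold change of 0.68, but -0.06 without CA-RIT NFAT1 9, so no direction can be given. Among the leading H4 genes, Hist1h4i had 2.98, 1.93 and 2.00 CPM in CA-RIT NFAT1 and 5.32, 2.69 and 7.13 CPM in NFAT5, with overlap through NFAT5 5. Hist1h4n, with -0.31, changed sign without CA-RIT NFAT1 2 (0.03) and without NFAT5 8 (0.01). Hist1h4a had -1.37 over the 8 libraries and 1.08 over all 10, so neither has a direction that holds.

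Many H2A and H2B genes lie head to head, with starts at most 500 bases apart and so on a shared stretch of promoter, and 12 such pairs were annotated. The H2A gene had the higher mean TPM in 8 of the 12 pairs, and in 7 of these in each of the 8 libraries. The pair of Hist1h2ap and Hist1h2br stood at 8394 and 0.604 TPM from starts 236 bases apart. Hist1h2ao and Hist1h2bq stood at 354 and 14.6 TPM, and Hist1h2ae and Hist1h2bg at 190 and 12.8 TPM. Only 0.163% of the words of Hist1h2br and 0% of those of Hist1h2bq are their own, so the levels of these H2B genes are uncertain. The pair of Hist1h2ac and Hist1h2bc ran the other way, with 0.985 TPM for the H2A and 16.4 TPM for the H2B gene, as did Hist1h2ah and Hist1h2bk with 2.34 and 13.9 TPM. The first 3 of these are the pairs whose H2A gene carries the adenine run before its stem-loop.

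Promoters were searched because many members were highest in the same libraries. RefSeq promoter windows on GRCm38.p6, from 250 bases before to 50 after the start, matched 62 of the 67 members, and motifs were searched on both strands. The CCAAT box (CCAAT or ATTGG) was in 53 of 62 members and in 41.1% of 27025 genes. All matched H1, H2A, H2B and H3 members held it, and 3 of 12 H4 members did. The TATA box (TATAAA or TTTATA) was in 35 members and in 15.7% of all genes. The octamer (ATTTGCAT or ATGCAAAT), known as the Oct-1 site of H2B promoters, was in 7 H2A and 7 H2B members and in 1.97% of all genes. A match is a description of the letters and not of a bound site. Windows of head-to-head genes can overlap, so the same site can count for both genes. The octamers of Hist1h2aa and Hist1h2ba, of Hist1h2ae and Hist1h2bg and of Hist1h2ah and Hist1h2bk are the same bases. The counts are therefore of members and not of separate sites. The 250 bases before the start are shown, with these motifs in capitals, for the leading gene, for an H2A gene with all 3 motifs and for the leading H4 gene.
Hist1h2ap, chr13:21833476-21833725, minus strand: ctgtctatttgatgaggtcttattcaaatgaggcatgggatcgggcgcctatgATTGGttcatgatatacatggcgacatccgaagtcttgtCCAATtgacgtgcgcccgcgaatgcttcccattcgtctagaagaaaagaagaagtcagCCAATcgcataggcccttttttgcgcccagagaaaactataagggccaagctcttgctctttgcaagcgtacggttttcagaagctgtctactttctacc
Hist1h2ae, chr13:23571221-23571470, minus strand: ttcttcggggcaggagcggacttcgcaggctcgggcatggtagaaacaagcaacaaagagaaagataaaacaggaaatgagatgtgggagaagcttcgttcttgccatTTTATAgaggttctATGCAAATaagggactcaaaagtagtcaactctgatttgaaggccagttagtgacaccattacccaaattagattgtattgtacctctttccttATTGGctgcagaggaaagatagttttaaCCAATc
Hist1h4d, chr13:23581318-23581567, plus strand: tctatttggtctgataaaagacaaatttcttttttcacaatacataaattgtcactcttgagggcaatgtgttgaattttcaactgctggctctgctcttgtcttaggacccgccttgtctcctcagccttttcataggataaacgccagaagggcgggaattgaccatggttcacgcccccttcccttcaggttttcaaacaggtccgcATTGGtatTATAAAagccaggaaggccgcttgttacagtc
Hist1h2ap has 3 CCAAT boxes and neither of the other motifs in this stretch, and Hist1h4d has a TATA box 3 bases after a CCAAT box. Hist1h2ae holds all 3 motifs, but its TATA box and octamer read TTTATA and ATGCAAAT, on the other strand. The same bases lie in the window of the H2B gene Hist1h2bg, whose start is 176 bases away on the opposite strand.

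Other S phase genes were set beside the histones, from lists in which no gene passed an adjusted p of 0.05. The sum of 44 DNA replication genes, such as the helicase subunit Mcm6 and the ribonucleotide reductase subunit Rrm2, was 10686, 11442 and 12442 CPM in NFAT5 1, 5 and 8, 7903, 11735 and 11814 CPM in CA-RIT NFAT1 2, 4 and 9, and 5993 and 9334 CPM in eGFP 3 and 6. It was highest in NFAT5 8 and lowest in eGFP 3. For NFAT5 against eGFP 37 of 44 of these genes had a positive log2 fold change, with a median of 0.49. For CA-RIT NFAT1 against eGFP there were 33, with a median of 0.37, and for CA-RIT NFAT1 against NFAT5 there were 4, with a median of -0.17. All 25 mitosis genes were positive in both comparisons with eGFP, with medians of 0.70 and 0.73, and 16 of 25 in CA-RIT NFAT1 against NFAT5. At an unadjusted p under 0.05, edgeR gave 2 DNA replication and 5 mitosis genes for NFAT5 against eGFP, 4 and 10 for CA-RIT NFAT1 against eGFP, and none for CA-RIT NFAT1 against NFAT5. In the same order, 7.26%, 6.44% and 1.13% of all genes had such a p, and 53.8%, 54.6% and 50.5% were positive.

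Histone reads did not follow the DNA replication genes in a fixed ratio. The histone sum was 0.176, 0.294 and 0.286 of the DNA replication sum in NFAT5 1, 5 and 8, 0.189, 0.197 and 0.214 in CA-RIT NFAT1 2, 4 and 9, and 0.331 and 0.194 in eGFP 3 and 6. The ratio was highest in eGFP 3, the library with the lowest replication sum, and lowest in NFAT5 1. The ratio to Slbp varied less, with 4.99, 6.22 and 5.84 in NFAT5, 4.89, 4.73 and 4.67 in CA-RIT NFAT1, and 5.35 and 4.41 in eGFP. Even CA-RIT NFAT1 10, which held few T cell transcripts, had a histone to Slbp ratio of 4.72, beside a histone to DNA replication ratio of 0.101. Slbp itself had 377, 541 and 609 CPM in NFAT5, 306, 490 and 542 CPM in CA-RIT NFAT1, and 371 and 411 CPM in eGFP, with an edgeR log2 fold change of 0.28 ± 0.32 for NFAT5 against eGFP.

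**Figure D5:**
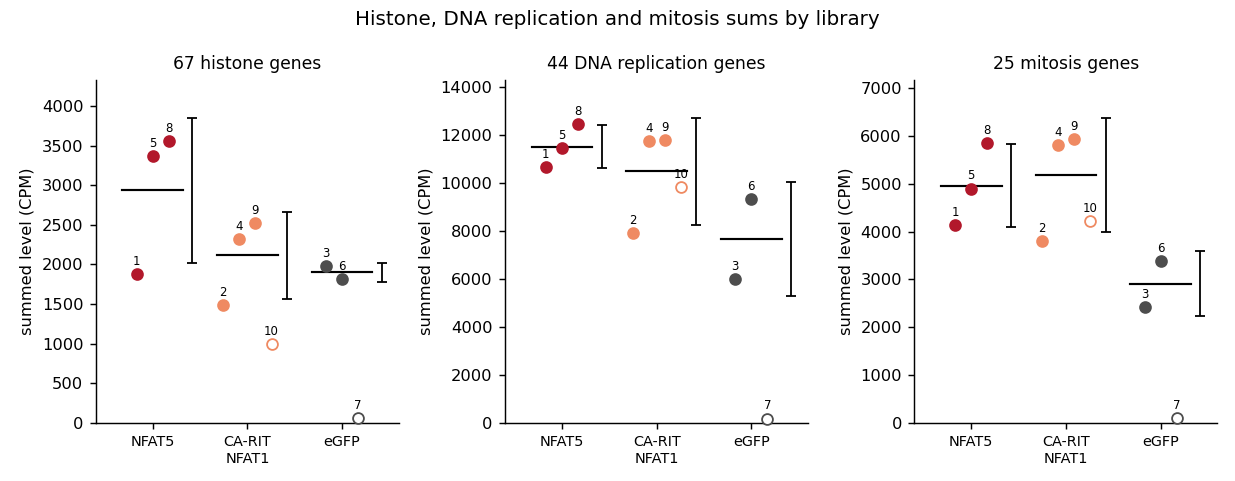
Summed CPM of the 67 histone genes, 44 DNA replication genes and 25 mitosis genes by library, with library numbers; black lines are means and bars SD of the filled points (n = 3, 3 and 2), and open points are the left-out CA-RIT NFAT1 10 and eGFP 7. eGFP 3 has the lowest replication sum of the 8 libraries, 5993 CPM, but a histone sum of 1984 CPM, above NFAT5 1.

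Genes for histone message processing and turnover, 23 tested of a list of 25, had a median log2 fold change of 0.45 for NFAT5 and 0.38 for CA-RIT NFAT1 against eGFP, with 17 positive in both. Npat, the coactivator of histone transcription, had 48.5, 39.5 and 46.5 CPM in NFAT5, 48.4, 32.1 and 20.7 CPM in CA-RIT NFAT1, and 8.21 and 29.1 CPM in eGFP. NFAT5 lay above eGFP, with a log2 fold change of 1.19 ± 0.54 for Npat. Pou2f1, at a lower level, had the largest value of the list for NFAT5 against eGFP, 2.64 ± 0.62. In that comparison 6 of the 23 were negative, among them Mif4gd with -0.42 ± 0.25 and Lsm10 with -0.59 ± 0.33. The 20 histone chaperones had medians of 0.23 and 0.18, with 17 and 13 positive.

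Of 10 replacement histones tested, 4 had a positive log2 fold change for NFAT5 against eGFP, with a median of -0.08, 3 of 10 for CA-RIT NFAT1 against eGFP, with a median of -0.29, and 0 of 10 for CA-RIT NFAT1 against NFAT5, with a median of -0.20. H2afz, the H2A.Z gene, had 976, 1729 and 2024 CPM in NFAT5, 845, 1540 and 1735 CPM in CA-RIT NFAT1, and 2002 and 1052 CPM in eGFP. eGFP 3 again stood near the top. H2afx, the H2A.X gene whose message can carry either end, had 343, 434 and 485 CPM in NFAT5, 318, 490 and 416 CPM in CA-RIT NFAT1, and 280 and 246 CPM in eGFP. Both the NFAT5 and the CA-RIT NFAT1 libraries lay above eGFP for H2afx, with log2 fold changes of 0.57 ± 0.28 and 0.51 ± 0.27. H2afj went the other way, with -0.58 ± 0.27 and -0.70 ± 0.27, and its CA-RIT NFAT1 libraries lay below both eGFP libraries. In the same order H3f3b had -0.12 ± 0.29 and -0.34 ± 0.29, and H3f3a had -0.17 ± 0.30 and -0.36 ± 0.30. Of 9 CD8 T cell markers, 0 were positive for NFAT5 and 1 for CA-RIT NFAT1 against eGFP, with medians of -0.48 and -0.49, and their part in the histone values was not tested.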

How the data were processed

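The members and gene lists were chosen with earlier results of these data known. The submitters' processing notes name Salmon 0.14.1 and the builds mm10 and GRCm38.p6, with no options. The deposited estimated counts hold fractions; each library's table, per the file headers, also gives the deposited TPM, a level per length made by the authors. Both were summed per gene. Of 140919 transcripts 140045 matched GENCODE M21, with 99.9% of equal length, and the other 874 held at most 0.276% of a library's reads. Counts were rounded for tests. CPM divide a gene's reads by those on all matched genes, without a TMM factor.

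Genes were tested with edgeR 4.0.16 (R 4.3.3): quasi-likelihood fit over 3 groups and 8 libraries, TMM scaling, its default low-count filter, Benjamini-Hochberg adjustment at 0.05. Each SE is the absolute log2 fold change over the root of F. DESeq2 1.42.0 and limma 3.58.1 voom with quality weights were alternatives, as were other scalings, filters, libraries and gene sets, a lowess offset with span 0.3 for length, and each library left out. The fit was tested on data simulated for NFAT5 against eGFP over 8 libraries. It recovered 8.00% of genes given a log2 change of 1 and 28.0% at 2, so most changes of that size would go uncalled. Recovery was 84.0% at a log2 change of 4 and 50.0% at 6, with 4 false calls. Depth was 18.8 to 36.5 M reads in the 8 libraries. The other 2 were left out of the main results, eGFP 7 for depth and CA-RIT NFAT1 10 for its few T cell transcripts. Named by rule were the 3 genes of highest mean CPM in each class and the 3 of smallest p in each direction of each comparison. Members named for non-overlapping libraries, TPM, position or sequence, and list genes outside the 3 of highest mean CPM, were chosen after their values were seen. Of the 25 processing genes, 2 symbols found no match. Sequences came from GENCODE M21 transcripts and RefSeq promoter windows.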

Additional observations from a re-analysis of the deposited data

Results flagged for a closer look

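Of 32 values examined in the group of 4 CA-RIT NFAT1 libraries, 3 had a library far from the others, where chance flags about 1 in 20. Hist1h2bj stood at 4.28 CPM in CA-RIT NFAT1 9, against 1.52 CPM in the nearest library. Hist1h4a stood at 3.26 CPM in CA-RIT NFAT1 10, against 0.226 CPM in the nearest. Hist1h4n stood at 6.58 CPM in CA-RIT NFAT1 9, against 2.54 CPM in the nearest.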

How the results depend on the processing

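The log2 ratio of summed histone reads for NFAT5 against eGFP was 0.63 over 8 libraries and 1.19 over all 10, where eGFP 7 with 3 histone reads enters, and ran from 0.47 to 0.87 with each library left out. For CA-RIT NFAT1 against eGFP it ran from 0.01 to 0.35, and for CA-RIT NFAT1 against NFAT5 from -0.71 to -0.28. The median log2 fold change of the tested members was 1.03 with limma voom for NFAT5 against eGFP and ran from 0.54 to 0.94 with each library left out. For CA-RIT NFAT1 against eGFP it was 0.18 with the stricter filter on low values and ran from 0.06 to 0.74, and for CA-RIT NFAT1 against NFAT5 it ran from -0.62 to -0.15; the cause of these shifts was not tested. The number of members called ran from 0 to 10, from 0 to 8 and from 0 to 0 in the same order, with the upper values reached without eGFP 6. With eGFP 3 as the only control the median of all genes also moved to 0.45 for NFAT5 and 0.49 for CA-RIT NFAT1. Of 78 log2 fold changes of named genes, 44 kept their sign in every setting run, and 4 were called in a setting, all without eGFP 6: Hist1h2ao, Hist1h3i and Hist1h3e for NFAT5, and Hist1h3e for CA-RIT NFAT1, against eGFP. The other fold changes took both signs, 10 for NFAT5 against eGFP, 14 for CA-RIT NFAT1 against eGFP and 10 for CA-RIT NFAT1 against NFAT5, and give no direction.

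For NFAT5 against eGFP, leaving out each library gave -0.58 to 0.57 for Hist1h1c, -0.22 to 1.64 for Hist1h1e, -0.21 to 0.17 for Hist1h2bj, -0.24 to 0.48 for Hist1h3c, -0.91 to 3.55 for Hist1h3e, -1.09 to 0.63 for Hist1h4a, -0.17 to 1.32 for Hist1h4i, -0.10 to 1.27 for Hist1h4n, -0.62 to 7.73 for Hist2h2be and -0.17 to 0.08 for Hist3h2ba. With 7 libraries, without eGFP 3, the sign changed for Hist1h1c (0.57), Hist1h3e (-0.91), Hist1h4a (0.63) and Hist2h2be (-0.62). Hist1h2bj, at -0.01, had 0.01 over all 10 libraries, 0.02 with limma voom and 0.00 with no filter and with the compared groups alone. Hist3h2ba, at -0.04, had 0.01 over all 10 libraries, 0.03 with limma voom and 0.02 with the length trend removed.

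For CA-RIT NFAT1 against eGFP, leaving out each library gave -0.16 to 0.61 for Hist1h1b, -0.98 to 0.16 for Hist1h1c, -0.78 to 1.09 for Hist1h1e, -0.29 to 0.71 for Hist1h2ae, -0.23 to 0.49 for Hist1h2ao, -0.15 to 0.21 for Hist1h2ap, -0.08 to 0.94 for Hist1h2bj, -0.02 to 4.45 for Hist1h3e, -1.32 to 0.17 for Hist1h4i, -0.23 to 4.54 for Hist1h4j, -0.65 to 0.96 for Hist1h4n and -0.31 to 0.38 for Hist2h3b. Without eGFP 3 the sign changed for Hist1h1c (0.16), Hist1h1e (1.09), Hist1h2ao (-0.23), Hist1h2ap (0.17), Hist1h3e (-0.02), Hist1h4i (0.17), Hist1h4j (-0.23) and Hist2h3b (0.27). Over all 10 libraries it changed for Hist1h2ao (-0.07), Hist1h2ap (0.13), Hist1h4a (0.59), Hist1h4n (-0.05) and Hist2h3b (0.21). With the length trend removed it changed for Hist1h2ap (0.18), Hist2h3b (0.15) and Hist3h2ba (0.04), and with limma voom for Hist1h2ap (0.05) and Hist1h4n (-0.20). Hist1h2ap also had 0.01 with no filter and with the compared groups alone.

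For CA-RIT NFAT1 against NFAT5, leaving out each library gave -1.63 to 0.14 for Hist1h2ad, -0.05 to 1.21 for Hist1h2bb, -0.48 to 0.16 for Hist1h2bg, -0.00 to 1.14 for Hist1h2bh, -0.06 to 0.96 for Hist1h2bj, -0.04 to 0.65 for Hist1h3c, -0.60 to 0.40 for Hist1h4b, -1.07 to 0.03 for Hist1h4n and -0.27 to 0.04 for Hist3h2ba. Over all 10 libraries the sign changed for Hist1h2bh (-0.01) and Hist1h4a (1.08), with limma voom for Hist1h2bh (-0.07), and with the length trend removed for Hist1h4b (0.08) and Hist3h2ba (0.01). The cause of these changes was not tested. No paired analysis was possible because the library numbers run from 1 to 10 with none shared between groups.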
